A study of Mus musculus with 12 samples.

Results

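The 9 genes described here encode heat- and irritant-gated channels of the transient receptor potential (TRP) family and their relatives: Trpv1, Trpv2, Trpa1, Trpm2, Trpm3, Trpm4, Trpm7, Trpc1 and Trpc6. They were taken by symbol from the 55416 gene identifiers of each count table, and all 9 were matched and passed the filter on low counts, which kept 16384 genes. RNA came from dorsal root ganglia of adult C57Bl6 mice, in 12 libraries, and the comparison asks what loss of the zinc finger protein Prdm12 does to gene expression in the adult ganglion. The 6 inducible knockout (iKO) libraries carry the label Rosa26Cre ERT2; Fl/Fl, a tamoxifen-dependent Cre at the broadly active Rosa26 locus with both Prdm12 alleles floxed, and were collected 1 month after tamoxifen. The controls were of several kinds. Control 1 was Rosa26Cre ERT2; Fl/+, controls 2 and 3 were +/+; Fl/+ with no Cre, and control 4 was Rosa26Cre ERT2; +/+, each collected 1 month after tamoxifen. Controls 5 and 6 were Rosa26Cre ERT2; Fl/Fl like the knockouts but were given corn oil, so no time after tamoxifen applies to them. The female libraries were controls 1 and 2 and iKO 1 to 3, and the others were male. Cre at this locus is not limited to neurons, and no label tells if a library is 1 animal or a pool, so the spread behind each p-value is that between libraries, which may be technical.

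TRP channels are cation channels built from subunits that assemble in groups around a central pore, and opening lets calcium and sodium into the cell. In pain-sensing neurons of the ganglion, Trpv1 responds to noxious heat, acid and capsaicin, Trpa1 to reactive irritants such as mustard oil, and Trpm3 to heat and neurosteroids, and together they carry acute noxious heat detection in mice. Trpm4, Trpm7, Trpc1 and Trpc6 are expressed far beyond sensory neurons, including in smooth muscle, endothelium and immune cells.

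Library totals ran from 13943784 to 20377766 counts, and each member had between 399 and 3981 counts in a library. Prdm12 checked the labels: in CPM, read counts scaled to a common library size, its level was 117 ± 29.4 in controls and 23.3 ± 2.51 after knockout (SD, n = 6 each), and the groups did not overlap (exact 2-sided permutation test, p = 0.00216, the smallest that 6 against 6 allows). Defining neuronal markers were present in every library, the summed level of 10 general sensory neuron genes being 8201 to 9706 CPM in controls and 7618 to 10175 CPM in iKO libraries. The iKO 1 library stood apart, with the lowest neuronal sum (7618 CPM, against 9099 to 10175 CPM in the other 5 iKO libraries) and the highest sums for fibroblast (3927 against 1418 to 1635 CPM), macrophage (573 against 192 to 212 CPM) and endothelial markers (250.3 against 114 to 122 CPM). In bulk ganglia, fewer cells of a type and less RNA per cell cannot be told apart.

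Levels of different genes were compared only per length, as CPM per kilobase of annotated exon. Trpv1 had the highest level in controls, 54.3 ± 10.1 CPM per kb, followed by Trpa1 at 32.1 ± 7.61 and Trpv2 at 22.2 ± 1.80 CPM per kb (SD, n = 6 each). The control ranges of Trpv1 (39.2 to 66.2) and Trpa1 (21.5 to 41.9) overlapped, as did those of Trpa1 and Trpv2 (19.6 to 24.7). A gap separated these from Trpm7 (7.77 ± 0.329 CPM per kb), Trpc6 (7.18 ± 1.00) and Trpc1 (6.01 ± 0.227), whose ranges overlapped each with the next. Another gap separated Trpc1 from Trpm4 (4.10 ± 0.137), Trpm3 (4.06 ± 0.253) and Trpm2 (3.27 ± 0.482), which again overlapped each with the next. The order of the 9 was the same in iKO libraries except that Trpc1 (5.63 ± 0.749 CPM per kb) came before Trpc6 (5.49 ± 0.640). Exon lengths are the union of all annotated isoforms, 24.4 kb for Trpm3 against 3.68 kb for Trpv1, and a long union lowers the value.

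**Figure D1:**
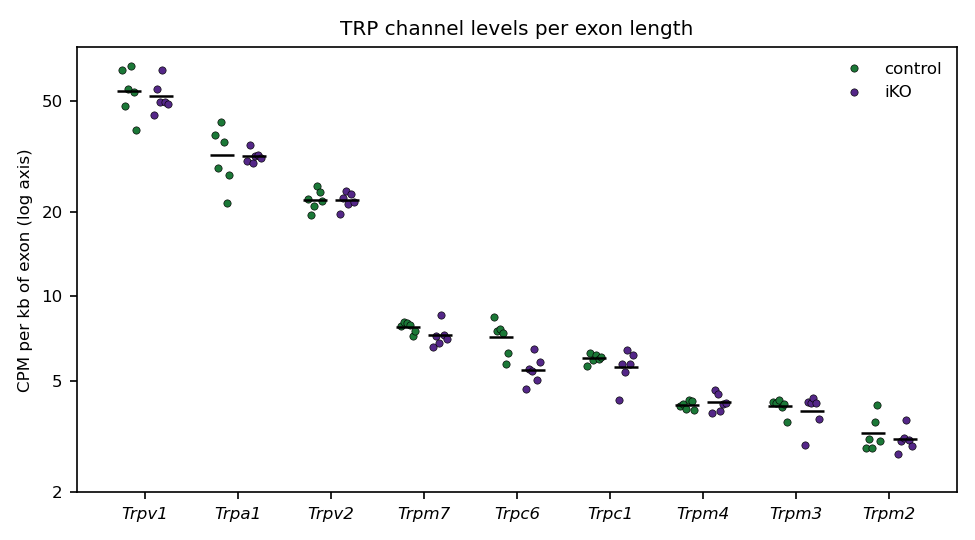
Expression of the 9 TRP channel genes per kilobase of exon (log axis) in the 6 control (green) and 6 iKO (purple) libraries; points are libraries and bars are group means. Trpv1, Trpa1 and Trpv2 lie at 19.6 CPM per kb or above in every control, and Trpc6 is the gene whose iKO points sit lowest against its control points.

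None of the channels gated by heat and irritants passed the test between iKO and control ganglia. Trpv1 was at 144 CPM in the lowest control, 199.7 at the median and 244 in the highest, and at 163, 183 and 237 CPM in iKO libraries. Every iKO value lay inside the control range, 2 above and 4 below the control median, with a log2 fold change of -0.06 ± 0.13 (SE, edgeR adjusted p = 0.911, 95% interval -0.33 to 0.21, or 0.796 to 1.16 times the control level). Trpa1 ran from 91.6 CPM through a median of 137 to 179 in controls and from 127 through 135 to 149 in iKO libraries. Controls spread more widely than knockouts (a coefficient of variation of 23.7% against 5.47%), and all 6 iKO values again lay inside the control range (log2 fold change -0.02 ± 0.14 SE, adjusted p = 0.975 by edgeR, 95% interval -0.32 to 0.27).

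Trpm3, the third of the acute heat channels, was at 87.2, 101 and 104 CPM (lowest, median and highest) in controls and at 72.1, 102 and 106 CPM in iKO libraries. The 72.1 CPM belonged to iKO 1, and the other 5 iKO libraries were at 89.6 CPM or above (log2 fold change -0.05 ± 0.09 SE, adjusted p = 0.890 by edgeR, 95% interval -0.23 to 0.14). Trpm3 shares 1.44% and 1.13% of its exon bases with C330002G04Rik and Gm27151 on the opposite strand, and reads there cannot be assigned to a strand in these libraries. Trpv2, which opens at higher temperatures than Trpv1 when expressed in cultured cells, was at 87.7, 98.9 and 111 CPM in controls, against 88.4, 99.4 and 106 CPM in iKO libraries. Its groups coincided, with 3 iKO libraries above and 3 below the control median and the narrowest interval of the heat-related channels, -0.13 to 0.14 on the log2 scale. Trpm2, a channel opened by ADP-ribose during oxidative stress and by warmth, was at 35.9, 38.3 and 51.1 CPM in controls, against 34.2, 38.2 and 45.1 CPM in iKO libraries (log2 fold change -0.05 ± 0.09 SE, adjusted p = 0.880 by edgeR). The highest Trpm2 values of both groups were in male libraries, control 5 and iKO 4.

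**Figure D2:**
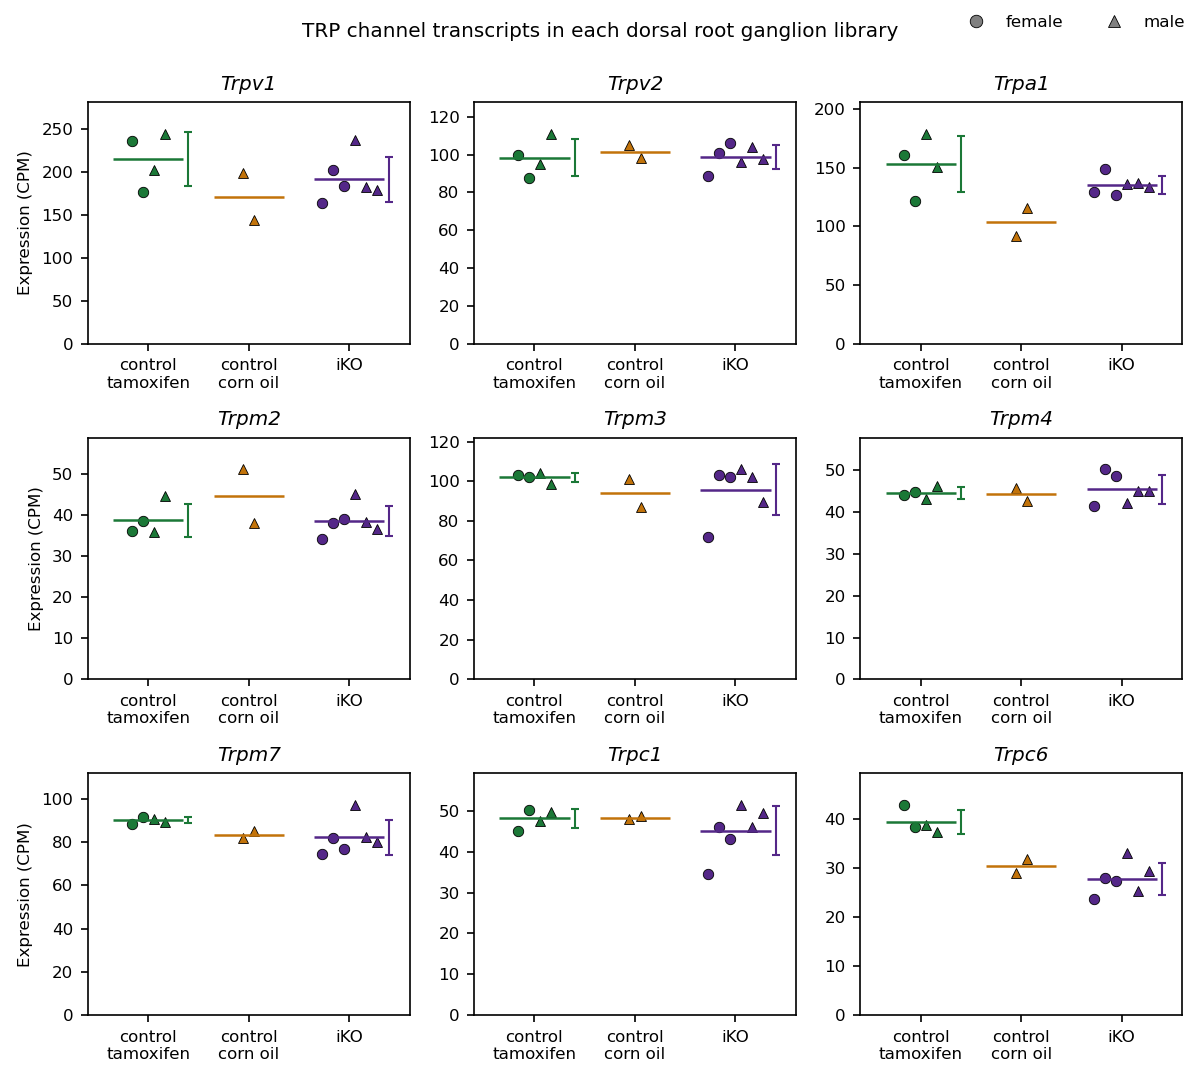
Expression in CPM (linear axis from 0) of each of the 9 genes in the tamoxifen-injected controls (green, n = 4), corn-oil controls (orange, n = 2) and iKO libraries (purple, n = 6); circles are female and triangles male libraries, horizontal lines are means and vertical bars SD where n exceeds 2. Trpc6 in iKO libraries (23.7 to 33.0 CPM) lies below the tamoxifen-injected controls (37.4 to 42.9 CPM), and Trpa1 is lowest in the corn-oil controls (91.6 and 116 CPM).

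Among the channels with wider expression, Trpc6 had the one difference with an unadjusted p under 0.05. Trpm4, a calcium-activated channel that passes monovalent cations, was at 42.6, 44.5 and 46.2 CPM in controls, against 41.4, 45.0 and 50.2 CPM in iKO libraries (log2 fold change 0.02 ± 0.06 SE, adjusted p = 0.925 by edgeR). Its control coefficient of variation, 3.33%, was the smallest of the 9. Trpm7, a magnesium-permeable channel fused to a kinase, was at 81.7, 88.9 and 91.7 CPM in controls, against 74.6, 80.9 and 97.2 CPM in iKO libraries. The 97.2 CPM belonged to iKO 4, and the other 5 iKO libraries lay below the control median (log2 fold change -0.09 ± 0.06 SE, adjusted p = 0.685 by edgeR, 95% interval -0.23 to 0.04). Trpc1, a subunit that joins other TRPC proteins, was at 45.2, 48.4 and 50.3 CPM in controls, against 34.5, 46.1 and 51.5 CPM in iKO libraries, with iKO 1 the lowest (log2 fold change -0.08 ± 0.07 SE, adjusted p = 0.776 by edgeR).

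Trpc6, a channel opened by diacylglycerol downstream of phospholipase C, had the largest difference of the 9. It was at 29.0, 37.8 and 42.9 CPM in controls, against 23.7, 27.6 and 33.0 CPM in iKO libraries. All 6 iKO libraries lay below the control median and 4 lay below every control, while iKO 6 (29.5 CPM) lay between the corn-oil controls (29.0 and 31.9 CPM) and iKO 4 (33.0 CPM) above both and below every tamoxifen-injected control. The log2 fold change was -0.39 ± 0.10 (SE, 95% interval -0.61 to -0.18, unadjusted p = 0.00139), which did not pass the threshold over all genes (edgeR's quasi-likelihood test, Benjamini-Hochberg adjusted p = 0.101). The DESeq2 Wald test gave the same fold change with adjusted p = 0.0301, and edgeR with no filter on low counts gave adjusted p = 0.0134. Both settings called more genes in all, 294 and 253 in place of 155. Over the 23 alternative settings of this comparison adjusted p ran from 0.00884, with tamoxifen-injected controls only, to 1.00, with corn-oil controls only. Leaving out control 5 or iKO 4 brought it past the threshold (adjusted p = 0.0381 and 0.0422 by edgeR). Within replicates 1 to 4 alone the log2 fold change was -0.46 (adjusted p = 0.167 by edgeR) and within replicates 5 and 6 alone -0.15 (adjusted p = 0.803). Controls 1 to 4 are the tamoxifen-injected ones and controls 5 and 6 the corn-oil pair, so this split is not separate from that by kind of control.

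Trpc6 is also expressed by vascular mural cells. The summed level of 8 mural and smooth muscle genes was 377 to 443 CPM in controls and 343 to 364 CPM in 5 iKO libraries, but 463 CPM in iKO 1, the library with the lowest Trpc6 (23.7 CPM). Most of this sum was Rgs5, listed here as a mural gene, at 279 to 346 CPM in controls and 245 to 274 CPM in the 6 iKO libraries, without overlap (log2 fold change -0.25 ± 0.07 SE, unadjusted p = 0.00325, adjusted p = 0.166 by edgeR). Rgs5 did not follow most of the others: within the iKO group it was highest in iKO 4. Acta2, Tagln, Myh11, Pdgfrb, Cspg4 and Cnn1 were highest in iKO 1, and Notch3 in iKO 5. As Rgs5 makes up most of the sum, the lower sum mainly shows its level and tells little of the other genes. By median, Acta2 (16.6 CPM in controls and 15.1 in iKO libraries), Myh11 (12.7 and 11.3) and Cnn1 (1.87 and 1.74) were also lower. Tagln (3.77 and 3.93), Pdgfrb (37.7 and 39.5), Cspg4 (17.4 and 18.7) and Notch3 (10.9 and 11.1) were higher. Of these 8 marker genes 0 were called by edgeR, beside 0.946% of all genes (3 fold changes below 0, 5 above). Rgs5 was the 1 with an unadjusted p under 0.05, beside 9.52% of all genes, and 0 of the 8 were at 0 counts in any library. Endothelial marker sums were 136 to 153 CPM in controls, 114 to 122 CPM in 5 iKO libraries and 250.3 CPM in iKO 1. The part of these cells in the Trpc6 difference was not tested beyond these values, and without iKO 1 its log2 fold change was -0.35.

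In all, 0 of the 9 channels were called between iKO and control libraries by edgeR, against 155 of all genes tested (0.946%). At an unadjusted p under 0.05 the count was 1 of 9, or 11.1%, where all genes gave 9.52%. Groups overlapped in all 9, and over all genes tested 1.54% had groups that did not. The median log2 fold change of the 9 was -0.05 and their median absolute value 0.05, beside 1.57e-05 and 0.0896 over all genes. The genes tested include ones with far fewer counts than any of the 9, and these medians were not matched for level. For the 8 channels other than Trpc6 the 95% intervals spanned 0 and lay within 0.796 to 1.21 times the control level. These bounds are for the comparison with all 6 controls, and did not hold against each kind of control. Against corn-oil controls the log2 difference was 0.43 for Trpa1 (95% interval 0.15 to 0.71) and 0.22 for Trpv1 (-0.14 to 0.58). Against tamoxifen-injected controls it was -0.18 for Trpa1 (-0.38 to 0.02) and -0.17 for Trpv1 (-0.43 to 0.10).

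The sequences before the start sites of 2 of the genes, Trpv1 with the highest level and Trpc6 with the largest difference, are shown as RefSeq places them on GRCm38.p6. Each run is the 250 bases before the start site on the plus strand, 5′ to 3′, at chr11:73233899-73234148 for Trpv1 and chr9:8543892-8544141 for Trpc6. Capitals mark matches on either strand to the core motif of RUNX factors (TGTGGT) or to the E-box (CANNTG), motifs that share no match in these 2 windows. They are shown to give the sequence at the start of each gene, and no measurement here bears on it.
Trpv1: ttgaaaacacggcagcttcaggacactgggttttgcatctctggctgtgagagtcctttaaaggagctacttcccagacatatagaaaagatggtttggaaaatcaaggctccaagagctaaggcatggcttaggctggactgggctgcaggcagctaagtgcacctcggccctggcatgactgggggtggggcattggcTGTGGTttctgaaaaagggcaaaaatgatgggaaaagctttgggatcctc
Trpc6: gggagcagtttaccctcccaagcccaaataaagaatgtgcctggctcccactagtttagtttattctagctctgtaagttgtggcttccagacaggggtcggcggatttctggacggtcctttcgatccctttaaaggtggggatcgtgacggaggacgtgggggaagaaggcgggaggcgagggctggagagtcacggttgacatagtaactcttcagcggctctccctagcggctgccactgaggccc
The Trpv1 window held 1 RUNX core match and 0 E-boxes, and the Trpc6 window held neither. Over all 32851 windows of this length, 14% held the RUNX core and 66.2% an E-box. RefSeq windows were matched for 7 of the 9 genes, with Trpa1 and Trpm4 not matched. Of these 7, 2 held a RUNX core match (Trpv1 and Trpm3) and 5 an E-box.

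Whether Trpc6 was called depended on which controls were used, though its difference between the kinds of control was itself not called (adjusted p = 0.393 by edgeR). Against the 4 tamoxifen-injected controls, Trpc6 was lower in iKO libraries by a log2 difference of -0.50 ± 0.08 (SE, adjusted p = 0.00884 by edgeR), and these groups did not overlap, with 37.4 to 42.9 CPM in those controls and 23.7 to 33.0 CPM in the 6 iKO libraries. It was 1 of 9 members called, against 1.35% of all genes in that comparison. The call was kept on leaving out 11 of the 12 libraries in turn, with the smallest adjusted p, 0.00196 by edgeR, without iKO 1. It was lost without control 1 (log2 difference -0.43, adjusted p = 0.0609 by edgeR). With no filter on low counts the difference was -0.49 (adjusted p = 7.86e-06 by edgeR), a setting that called 927 genes in this contrast in place of 222. Against the corn-oil controls, at 29.0 and 31.9 CPM, the Trpc6 difference was -0.10 ± 0.12 (SE, adjusted p = 1.00 by edgeR), with a 95% interval of -0.36 to 0.15. In that comparison 0 of 9 members were called, and 0.146% of all genes.

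Between the corn-oil and the other controls, Trpa1, Trpc6 and Trpv1 had an unadjusted p under 0.05 and none was called. Trpa1 was at 91.6 and 116 CPM in them and at 122 to 179 CPM in tamoxifen-injected controls, a log2 difference of -0.61 ± 0.14 (SE, unadjusted p = 6.27e-04). This was not called over all genes (adjusted p = 0.393 by edgeR, with 0.0758 to 0.799 on leaving out single libraries), but was with no filter on low counts (adjusted p = 3.21e-05). The Trpc6 difference was -0.40 ± 0.12 (SE) and that of Trpv1 -0.39 ± 0.18 (SE), with adjusted p of 0.393 and 0.427 by edgeR. Trpa1 in iKO libraries, at 127 to 149 CPM, lay inside the range of the tamoxifen-injected controls and above both corn-oil controls. Its log2 difference from the corn-oil controls was 0.43 ± 0.13 (SE, adjusted p = 0.545 by edgeR), which was called with no filter on low counts (0.44, adjusted p = 0.00722) and on leaving out single libraries had adjusted p of 0.198 to 1.00. From the tamoxifen-injected controls it was -0.18 ± 0.09 (SE, adjusted p = 0.349 by edgeR). Of the 9 channels 0 were called between the kinds of control by edgeR, as were 0 of all genes (0%), or 443 with no filter on low counts. At an unadjusted p under 0.05 the counts were 3 of 9 (33.3%) and 1900 of all genes (11.6%).

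These contrasts share libraries and are not independent of each other. Injected agent, genotype and sample number changed together between controls 1 to 4 and controls 5 and 6, so their effects cannot be told apart there. Among the iKO libraries, all of 1 genotype and given tamoxifen, Trpa1 was at 135 ± 9.47 CPM in iKO 1 to 4 and at 135 ± 2.19 CPM in iKO 5 and 6 (SD, n = 4 and 2), and Trpc6 at 28.0 ± 3.83 and 27.5 ± 2.88 CPM. Prdm12 was at 147 CPM in control 5 and 64.6 CPM in control 6, while Trpc6 was at 29.0 and 31.9 CPM in the same libraries. The other 6 channels had log2 differences of -0.16 to 0.15 between the kinds of control, the lowest being Trpm7 (-0.16 ± 0.09 SE) and the highest Trpm2 (0.15 ± 0.13 SE).

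**Figure D3:**
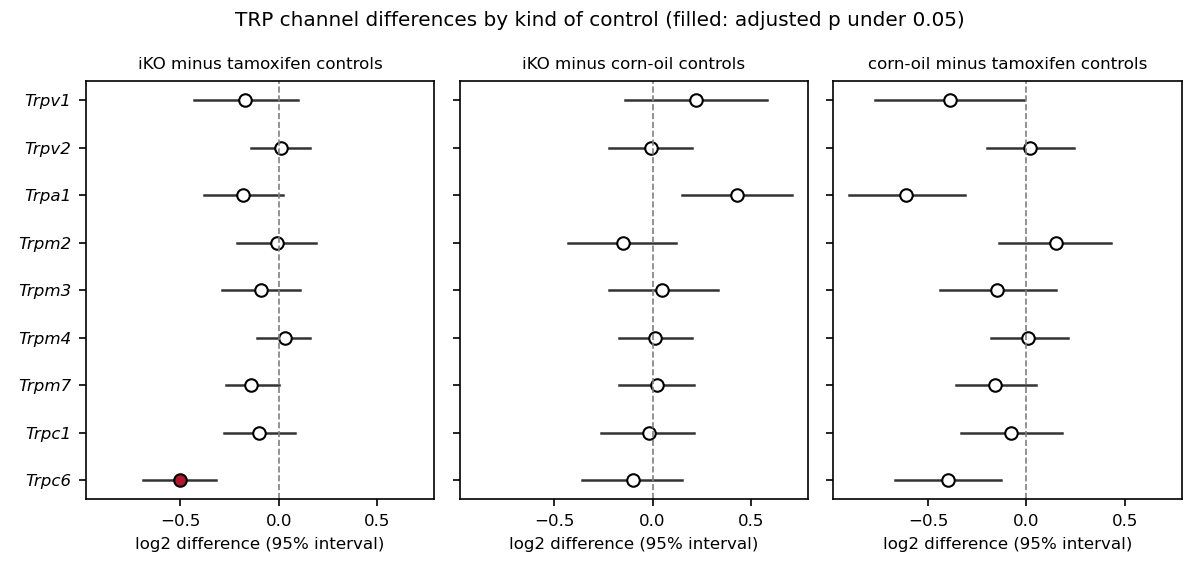
Log2 differences (points) with 95% intervals (lines) for the 9 genes in 3 contrasts of 1 edgeR fit: iKO minus tamoxifen-injected controls, iKO minus corn-oil controls, and corn-oil minus tamoxifen-injected controls; filled points have an adjusted p under 0.05. Trpc6 is filled in the first contrast alone (-0.50), and Trpa1 lies at 0.43 in the second and at -0.61 in the third.

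Levels were also compared by sex. Of the 9 channels 0 were called between male and female libraries by edgeR, against 0.0549% of all genes, and the largest differences were those of Trpc1 and Trpm2 (0.14 ± 0.07 and 0.14 ± 0.09 SE on the log2 scale, male minus female, adjusted p = 0.904 for both). The effect of the knockout in males minus that in females was not called for any of the 9 or for any of the 16384 genes (0%, with 589 genes at an unadjusted p under 0.05, and 270 called with no filter on low counts). Trpc6 had the smallest p of the 9 in this test: its log2 fold change was -0.63 ± 0.14 (SE) in females and -0.23 ± 0.12 (SE) in males, a difference of 0.40 ± 0.18 (SE, unadjusted p = 0.0465, adjusted p = 0.945 by edgeR). Both female controls were tamoxifen-injected, while 2 of the 4 male controls were the corn-oil pair, and the part of this uneven split in the value was not tested.

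The iKO 1 library, which stood apart in its marker sums, was also low in most of the channels. Within the iKO group it was the lowest library for 8 of the 9 channels (Trpa1 was lowest in iKO 3), and iKO 4 the highest for 6. The summed level of the 9 was 661 CPM in iKO 1 and 741 to 844 CPM in the other iKO libraries, beside 692 to 872 CPM in controls. Among controls, no library was lowest for more than 3 of the 9. As a description over the 12 libraries, Pearson's r of log2 CPM between pairs of the 9 ran from -0.538 (Trpa1 with Trpm2) to 0.788 (Trpm7 with Trpc6). Without iKO 1 the log2 fold change of Trpm3 was 0.02 in place of -0.05. Over the same 12 libraries, the genes whose log2 CPM followed Trpv1 most closely, of 10863 compared, were Cd44, a hyaluronan receptor (Pearson's r = 0.907), Mgat4a, a glycosyltransferase (0.887), and Adcyap1, the gene of the peptide PACAP (0.883). Those nearest to Trpa1 were Cdk15, a cyclin-dependent kinase (0.923), Cd24a, a surface glycoprotein (0.920), and Cisd2, an iron-sulfur protein (0.916). None of these 6 was called between iKO and control (adjusted p 0.779 to 0.997 by edgeR), and all points share the depth and cell makeup of their library.

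Elsewhere in the TRP family, the cold and menthol channel Trpm8 was the 1 called gene of 13 that passed the filter, out of 19 listed, where 0.946% of all genes were called. It was at 40.4 to 65.9 CPM in controls and 15.2 to 35.6 CPM in iKO libraries, without overlap, and fell by 0.92 ± 0.19 on the log2 scale (SE, adjusted p = 0.0429 by edgeR), a call that was lost in 9 of the 12 single-library omissions (adjusted p up to 0.137) and with no filter on low counts (0.157). Its log2 difference was -0.94 ± 0.22 (SE, adjusted p = 0.0685 by edgeR) from the tamoxifen-injected controls. From the corn-oil controls it was -0.86 ± 0.29 (SE, adjusted p = 0.702 by edgeR), so it was called against neither kind alone. Trpm8 shares 8.2% of its exon bases with 4930453O03Rik on the opposite strand. Trpc7, a close relative of Trpc6, had the next smallest p, with control levels of 3.19 ± 0.689 CPM and iKO levels of 2.45 ± 0.639 CPM (SD, n = 6 per group), a log2 fold change of -0.42 ± 0.19 (SE, edgeR adjusted p = 0.503). Trpc5 (0.33 ± 0.18 SE) and Pkd2l2 (0.10 ± 0.08 SE, with 10.9% of its exon bases shared with Fam13b on the opposite strand) followed. The 13 had 7 fold changes above 0 and 6 below, with a median of 0.01. Of the other 6, Trpv5, Trpm1, Trpm5, Mcoln3 and Pkd2l1 averaged at most 0.384 CPM in controls, and Trpc2 had 0 counts in every library, with 97.5% of its exon bases also annotated to Xntrpc.

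**Figure D4:**
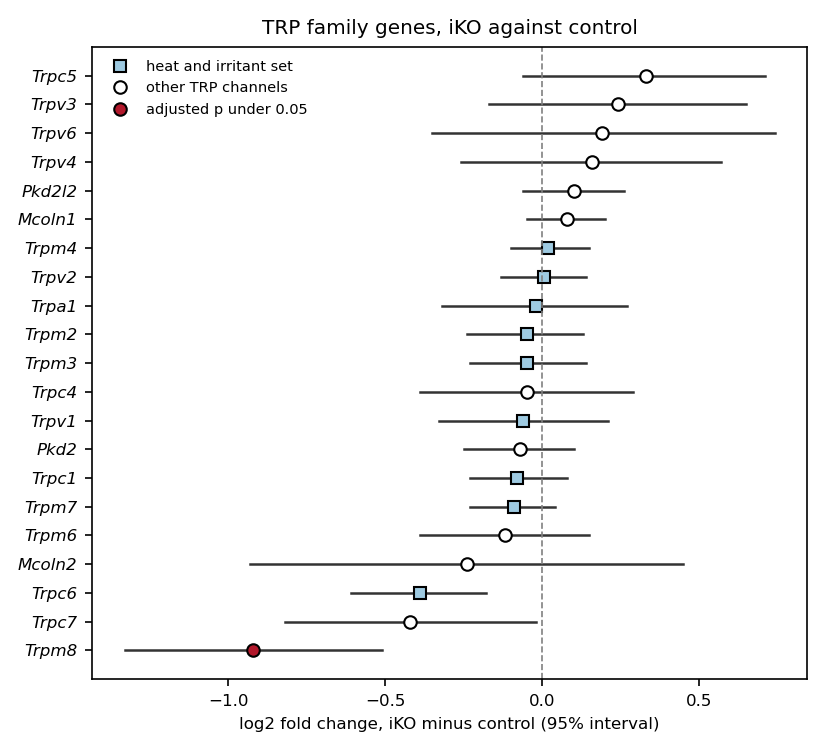
Log2 fold changes, iKO minus control, with 95% intervals for 21 TRP family genes that passed the count filter, ordered by value; squares are the 9 heat and irritant channels and circles 12 others. Trpm8 at -0.92 is the 1 gene past the threshold, Trpc7 (-0.42) and Trpc6 (-0.39) follow it, and the other heat and irritant channels lie between -0.09 and 0.02.

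Genes whose products sensitise, anchor or modulate TRP channels had 0 of 31 called by edgeR, beside 0.946% of all genes. At an unadjusted p under 0.05 were 7 of the 31, a larger share than the 9.52% of all genes. Fold changes were above 0 for 18 and below 0 for 13, with a median of 0.01. Prkcd, protein kinase C delta, had the smallest p (433 ± 31.7 CPM in controls and 366 ± 21.5 CPM after knockout, an order kept in the values that follow, log2 fold change -0.25 ± 0.06 SE, adjusted p = 0.117 by edgeR). Akap5, the anchor that holds kinases at Trpv1, was at 3.74 ± 0.789 and 2.59 ± 0.267 CPM (-0.55 ± 0.15 SE, adjusted p = 0.139). Pirt, a membrane partner of Trpv1, was at 1359.9 ± 65.3 and 1286 ± 150.2 CPM (-0.07 ± 0.08 SE), and Tmem100, which links Trpa1 to Trpv1, at 39.1 ± 3.90 and 39.5 ± 2.73 CPM (0.02 ± 0.07 SE); these and Akap5 were singled out after their values were seen. Of 6 other channels and calcium-entry genes with a part in heat responses 0 were called, with a median of 0.05, the smallest p being that of the potassium channel Kcnk10 (16.8 ± 1.64 and 12.5 ± 2.12 CPM, -0.39 ± 0.10 SE, adjusted p = 0.101).

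Markers of the neurons that carry these channels were examined beside them. Of 8 peptidergic nociceptor genes, the class in which Trpv1 is most abundant, 1 rose and 0 fell (Calcb, the gene of β-CGRP, 0.59 ± 0.09 SE, adjusted p = 0.00311 by edgeR), with a median of -0.05, and the summed level was 2072 to 2444 CPM in controls and 2000.4 to 2348 CPM in iKO libraries. Of 8 nonpeptidergic nociceptor genes 0 rose and 1 fell (Otoa, -0.84 ± 0.10 SE, adjusted p = 7.31e-04), with a median of -0.16 and sums of 1986 to 2409 and 1679.7 to 2259 CPM, the lowest being iKO 1. Of the 10 general neuronal genes 0 were called (8 fold changes above 0, 2 below, median 0.06). Of 8 Schwann cell genes 0 were called, with 8 fold changes above 0, a median of 0.25 and 3 at an unadjusted p under 0.05. At that limit the peptidergic list had 4, the nonpeptidergic list 2 and the general list 0. All genes gave 9.52%, and 0.946% of them were called. The part of these neurons and Schwann cells in the channels' values was not tested.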

How the data were processed

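Poly(A) RNA of 12 libraries was sequenced from a TruSeq preparation that keeps no strand information, per the labels' protocols. The submitters' processing notes name GRCm39 and 3 tools: featureCounts 2.0.1, STAR 2.7.8a, and bcl2fastq 2.20.0.422. Which annotation was counted, and how reads shared between genes were treated, is not stated in the labels. The 12 deposited files each hold unnormalized read counts for 55416 genes. Symbols came by identifier from GENCODE vM21, on the older build GRCm38, which named 94.1% of identifiers holding 99.69% of counts. It was used for names, exon lengths and exon overlaps; the coordinates printed belong to RefSeq's GRCm38.p6 windows and were not joined to the counts.

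Counts were scaled by TMM, filtered with filterByExpr by group and tested across all 16384 genes kept with edgeR 4.0.16 (R 4.3.3), by the robust quasi-likelihood test on group and sex (residual degrees of freedom, 9). P-values are 2-sided and adjusted by Benjamini-Hochberg over all genes tested (threshold 0.05, called). The kinds of control were contrasted in a 3-group fit and the sexes by an interaction term. Standard errors and 95% intervals were derived from each fold change and the F value of its test. CPM use TMM-scaled library sizes and are mean ± SD; log2 CPM use a prior count of 2. The procedure was also run on simulated data, whose outcome is not given and not used here. Libraries of 1 group differed by at least 3.21 times the counting variance, more than a library deposited again would; separate preparations of 1 animal cannot be seen this way. Alternatives included DESeq2 1.42.0, another scaling, no filter, other covariates and omitted libraries. Named genes were all 9 members, Prdm12, Trpm8, called members and the smallest p of each list, 4 other TRP genes by smallest p, and the 3 genes most like Trpv1 and Trpa1; others are said to be so or stand for values beside a result. Members and lists were chosen with earlier results of these data known. Results for 2 genes of these lists are not reported here, though they count in the lists' totals.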

Additional observations from a re-analysis of the deposited data

Results flagged for a closer look

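In groups of 6 libraries, 3 of 22 sets of values held a library farther from the rest than Dixon's 95% limit, and chance gives about 1 in 20 sets. Trpm3 was at 87.2 CPM in control 6, where the other controls averaged 102 CPM. Trpm7 was at 97.2 CPM in iKO 4, where the other iKO libraries averaged 79.1 CPM. Prdm12 was at 18.6 CPM in iKO 1, where the other iKO libraries averaged 24.3 CPM.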

How the results depend on the processing

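Under the alternatives tried, 177 of 207 log2 fold changes of the 9 channels kept their direction and side of the threshold, 25 reversed and 5 (all Trpc6) passed the threshold. Genes called between iKO and control, 155 in the report, were 253 with no filter on low counts, 294 by DESeq2, 79 with the replicate number as a block, 24 against corn-oil controls only, 35 in replicates 1 to 4, 82 in replicates 5 and 6 (4 male libraries, no sex term) and 341 without iKO 1 and control 6, and 92 (without control 1) to 364 (without iKO 1) on leaving out single libraries. Channels called were 1 with no filter, by DESeq2 and against tamoxifen-injected controls only, and 0 to 1 on leaving out single libraries. With no filter, genes called were 927 against tamoxifen-injected controls, 349 against corn-oil controls, 443 between kinds of control, 16 between sexes and 270 for the interaction. Leaving out single libraries gave 98 to 1459, 3 to 160, 0 to 14, 8 to 11 and 0 to 1 in the same order, and Prdm12 at 18.2 to 20.9% of control. A corn-oil group of 1 library is then assumed to vary like the others.

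Directions reversed, none of them called under these settings, for Trpv1 (0.22 against corn-oil controls, 0.08 in replicates 5 and 6), Trpv2 (-0.01 with no sex term, against corn-oil controls and in replicates 5 and 6, -0.04 with the block), Trpa1 (0.43 against corn-oil controls, which with no filter as well was 0.44 and called, 0.38 in replicates 5 and 6, 0.12 with the block, 0.04 with a term for replicates 5 and 6), Trpm2 (0.07 in replicates 1 to 4), Trpm3 (0.05 against corn-oil controls, 0.03 in replicates 5 and 6), Trpm4 (-0.00096 with the block) and Trpm7 (0.02 against corn-oil controls). On leaving out single libraries Trpv1 ran from -0.14 to 0.04, Trpv2 from -0.03 to 0.04, Trpa1 from -0.10 to 0.07, Trpm2 from -0.09 to 0.02 and Trpm3 from -0.08 to 0.02. The controls of replicates 5 and 6 are the corn-oil pair, so reversals there and against corn-oil controls are not separate. The cause of the reversals was not tested. Same-numbered libraries deviated together in 3 of 6 pairs (correlation above 0.1). Of the 6 iKO libraries 3 correlated best with the control of their own number, as did 3 of the 6 controls with their iKO library. These values do not settle whether the numbers are pairs. They were not taken as pairs in the main test, and the block changed no call among the 9 channels. Trpc6 had the fewest counts of the 9, 399 in its shallowest library.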
